A study of Mus musculus with 12 samples.

Results

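Oxidative phosphorylation is carried out by 5 protein complexes of the inner mitochondrial membrane, and nuclear genes encode most of their subunits. The genes described here were the rows of the deposited FPKM table (fragments assigned to a gene, divided by its length and by the depth of the library) that were annotated as protein-coding and whose symbol began with Nduf, Sdha, Sdhb, Sdhc, Sdhd, Uqcr, Cox4, Cox5, Cox6, Cox7, Cox8 or Atp5, with Cox6a2 left out. This rule gave 100 members of 55322 genes in the table, of which 21821 were protein-coding. The 100 rows carried 99 symbols, because Atp5o appeared under 2 gene identifiers. By complex they were 46 members for complex I, 8 for complex II, 8 for complex III, 20 for complex IV and 18 for complex V.

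The cells were type 2 conventional dendritic cells (cDC2), which present antigen above all to CD4 T cells, and came from mouse spleens 4 days after lipopolysaccharide (LPS). All mice were 7 to 8 weeks old and received 5 mg/kg of LPS intraperitoneally, so no untreated group stood beside them. CLP-cDC2 were CD45.2+ descendants of common lymphoid progenitors (CLPs), and CDP-cDC2 were those of common dendritic cell progenitors (CDPs). These progenitors came from wild-type mice and were injected into the marrow of B6.SJL recipients, which carry CD45.1. L-cDC2 were the tdTomato+ cells, and M-cDC2 the tdTomato- cells, of Il7r-Cre;Rosa26-lsl-tdTomato mice, in which Cre expressed from Il7r leaves a permanent red label. The label therefore marks any cell with an ancestor that expressed Il7r, a gene typical of lymphoid progenitors. Each of the 4 groups had 3 libraries, 12 in all. Whether the 3 libraries of a group stand for different animals is not stated in the labels, and p-values describe the spread between these libraries, which may be technical. Sort markers and whether L-cDC2 and M-cDC2 shared mice are not stated either. In bulk RNA, fewer cells of a type and less RNA per cell cannot be told apart.

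Complex I (NADH dehydrogenase) and complex II (succinate dehydrogenase) pass electrons from NADH and succinate to ubiquinone. Complex III (cytochrome bc1) passes them to cytochrome c and complex IV (cytochrome c oxidase) to oxygen, and complex V (ATP synthase) uses the resulting proton gradient to make ATP. In dendritic cells the balance between this pathway and glycolysis is known to shift with activation, and Toll-like receptor ligands such as LPS are known to change it. Nuclear respiratory factor NRF1, the ETS factor GABPA and YY1 are known to bind the promoters of many of these genes.

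The promoters of 4 members whose values are described in detail are shown because each held a match to the NRF1 motif. They are RefSeq windows of GRCm38.p6 from 250 bases before to 50 bases after the start of the gene, written 5′ to 3′ on the strand of the gene, and capitals mark motif matches. The windows were chr2:10080383-10080682 for Atp5c1 (1 of 2 RefSeq starts), chr2:73911277-73911576 for Atp5g3, chr9:50603800-50604099 for Sdhd and chr1:24005591-24005890 for Sdhaf4, all on the minus strand.
Atp5c1: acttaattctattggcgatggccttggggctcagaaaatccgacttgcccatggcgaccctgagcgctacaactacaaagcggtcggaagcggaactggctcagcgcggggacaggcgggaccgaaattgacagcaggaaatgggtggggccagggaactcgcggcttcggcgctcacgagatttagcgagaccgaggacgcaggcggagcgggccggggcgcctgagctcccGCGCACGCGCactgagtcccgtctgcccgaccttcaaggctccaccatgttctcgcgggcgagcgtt
Atp5g3: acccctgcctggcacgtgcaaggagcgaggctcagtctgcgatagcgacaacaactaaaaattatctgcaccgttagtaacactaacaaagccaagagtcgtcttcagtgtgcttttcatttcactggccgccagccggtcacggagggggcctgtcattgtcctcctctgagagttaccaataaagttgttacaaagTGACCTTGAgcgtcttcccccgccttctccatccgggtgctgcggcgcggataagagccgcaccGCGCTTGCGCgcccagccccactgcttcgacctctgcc
Sdhd: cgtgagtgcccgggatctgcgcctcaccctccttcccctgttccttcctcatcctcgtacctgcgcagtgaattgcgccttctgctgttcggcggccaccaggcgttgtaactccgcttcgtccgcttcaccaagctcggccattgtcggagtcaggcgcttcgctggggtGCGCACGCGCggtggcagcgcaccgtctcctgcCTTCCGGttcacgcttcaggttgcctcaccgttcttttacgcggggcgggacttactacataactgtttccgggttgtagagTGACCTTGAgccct
Sdhaf4: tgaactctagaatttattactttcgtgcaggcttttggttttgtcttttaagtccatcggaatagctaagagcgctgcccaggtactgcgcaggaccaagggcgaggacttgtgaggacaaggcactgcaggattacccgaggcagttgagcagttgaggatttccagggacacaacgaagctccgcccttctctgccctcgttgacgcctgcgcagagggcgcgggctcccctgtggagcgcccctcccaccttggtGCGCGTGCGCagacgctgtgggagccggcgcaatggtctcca
The NRF1 match began at position -17 from the start in Atp5c1, 12 in Atp5g3, -79 in Sdhd and 8 in Sdhaf4. In Atp5g3 and Sdhaf4 this motif was read on the other strand. The second capital run of Sdhd, at position -46, was the ETS motif read on the other strand. The capital run of Atp5g3 at position -52 and the third run of Sdhd at position 36 were the estrogen-related receptor motif, also read on the other strand.

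RefSeq windows were found by symbol for 82 of the 100 members, 78 of them tested. Motifs were searched on both strands, and matches to different motifs could overlap. A gene was counted once if any of its windows held a match, so genes with several RefSeq starts had more windows to match. The NRF1 motif, GCGCA then any base then GCGC, was found for 25.6% of the tested members with a window. That compares with 12.5% of tested protein-coding genes and 5.19% of all 27025 genes with a window. CCGGAAG (ETS, GABPA) was found for 26.9% of these members, 22.8% of tested protein-coding genes and 9.93% of all genes. AANATGGC (YY1) was found for 25.6%, 11.2% and 6.96%, and TCAAGGTCA (the estrogen-related receptor motif) for 2.56%, 0.335% and 0.466% of the same sets of genes. A match describes letters in a window and is not a binding site.

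A gene was tested if it reached 1 FPKM in at least 3 libraries, which 14538 genes and 93 of the 100 members did. The tested members were 45 for complex I, 7 for complex II, 8 for complex III, 15 for complex IV and 18 for complex V. The 7 members that were not tested were low in every library. Ndufb11b was listed at 0 in all 12 libraries, and Sdhaf3, an assembly factor of complex II, lay between 0.408 and 1.07 FPKM. The others were Cox4i2, Cox7b2, Cox8b and Cox8c, which are isoforms used in lung, testis or muscle, and Ndufa4l2, a relative of the complex IV subunit Ndufa4. Each of these 5 was at most 0.197 FPKM in any library.

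Members were among the more abundant transcripts. Their median level over all libraries was 102.4 FPKM, against 5.52 FPKM for all tested genes, and 49 exceeded 100 FPKM. Within complex I the mean levels ran from 4.03 FPKM for the assembly factor Ndufaf2 to 283.6 FPKM for the small accessory subunit Ndufa1. Within complex II they ran from 9.57 FPKM for the assembly factor Sdhaf2 to 179.2 FPKM for the membrane anchor Sdhd. Complex III ran from 72.2 FPKM for the core subunit Uqcrc2 to 406.8 FPKM for Uqcr10. Complex IV was the widest, from 2.54 FPKM for Cox7a1 to 808.2 FPKM for Cox8a, the ubiquitous form of subunit 8. Complex V ran from 29.7 FPKM for Atp5l to 409.8 FPKM for the catalytic F1 subunit Atp5b. Members were also short, with a median length of 1675 bases against 4171 bases for tested protein-coding genes. FPKM divides by length, so levels are comparable between genes only on this scale.

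Depth recovered from the steps of the FPKM values was 26543345 to 73732243 assigned reads per library, with the lowest and the highest both in L-cDC2. Recovered reads were fractional for many genes, and 8 of the 93 tested members had whole reads in every library. How reads shared between copies were counted is not stated, so values of members with near-identical copies are uncertain, and 17 rows with the same symbol stems were not protein-coding. Cox5b-ps, a copy of Cox5b that the table annotates as protein-coding, was kept by the rule. Exons of 37 members overlapped those of another gene, and no source used here states a strand setting for the counting. The labelled cell type was checked against 6 cDC2 markers. Their summed level was 70.4 to 74.5 FPKM in CLP-cDC2, 198.6 to 276.6 FPKM in CDP-cDC2, 173.7 to 205.0 FPKM in L-cDC2 and 220.2 to 273.9 FPKM in M-cDC2. Cd209a, a C-type lectin of cDC2, was 10.1 to 16.1 FPKM in CLP-cDC2 and at least 53.3 FPKM in every other library. Not every marker was lowest in CLP-cDC2. Irf4 averaged 5.69 FPKM in CLP-cDC2, 6.16 in CDP-cDC2, 5.89 in L-cDC2 and 4.67 in M-cDC2. Itgam averaged 10.04, 18.2, 13.7 and 9.46 FPKM in the same order. No marker of this list was at 0 in any library, but Mgl2 was 0.0492 to 0.419 FPKM in CLP-cDC2. In every other library Mgl2 was at least 1.07 FPKM.

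Each library was summarised by the median over the 93 tested members of log2(FPKM + 1) minus the gene's mean over the 12 libraries. The CLP-cDC2 libraries stood at 0.17, 0.23 and 0.19, and the CDP-cDC2 libraries at 0.02, -0.09 and -0.37. The L-cDC2 libraries stood at -0.02, -0.16 and -0.07, and the M-cDC2 libraries at -0.04, 0.01 and 0.13. All 3 CLP-cDC2 libraries were above the other 9, and the other 3 groups overlapped. The same summary over all tested genes stayed between -0.09 and 0.05. CDP-cDC2 replicate 3 stood apart, with 3 of 93 members above their own mean, against 77 to 89 members in the CLP-cDC2 libraries. M-cDC2 replicate 3 was the highest outside CLP-cDC2, with 72 members above their mean. As a share of all summed FPKM, the members took 2.84 to 2.96% in CLP-cDC2, 2.15 to 2.59% in CDP-cDC2, 2.42 to 2.54% in L-cDC2 and 2.51 to 2.69% in M-cDC2.

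**Figure D1:**
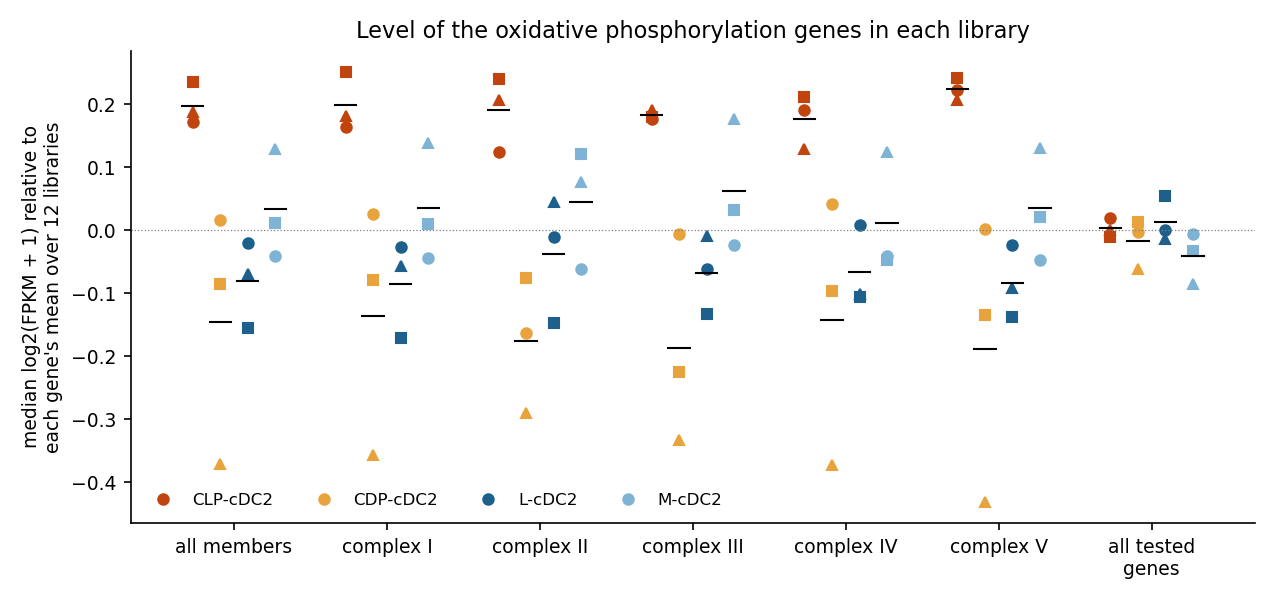
Median log2(FPKM + 1) of the tested members in each library relative to each gene's mean over the 12 libraries, for all members, for each complex and for all tested genes. Points are libraries (circle, square and triangle for replicates 1, 2 and 3) and bars are group means. The CLP-cDC2 libraries stand at 0.17 to 0.23 for all members and CDP-cDC2 replicate 3 at -0.37.

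The first comparison set the CLP progeny against the CDP progeny, which differ in the progenitor injected. Genes of all 5 complexes were higher in CLP-cDC2 than in CDP-cDC2. At a Benjamini-Hochberg adjusted p under 0.05 in limma, with p adjusted over all tested genes, 27 of 93 members rose and 0 fell. Over all tested genes, 13.1% passed, of which 7.02% rose and 6.12% fell. The difference was above 0 for 91 members, with a median of 0.37 on the log2(FPKM + 1) scale, against -0.01 over all tested genes. In 58 members all CLP-cDC2 libraries lay above all CDP-cDC2 libraries, and in 0 members all lay below. Over all tested genes these shares were 16.7% and 13%. Before adjustment, 63 members had a p under 0.05, and so did 4175 of all tested genes. These calls rest on a spread estimated over all 4 groups: fitted on the 6 libraries of CLP-cDC2 and CDP-cDC2 alone, 0 members passed in limma (lowest adjusted p 0.0518, for Atp5c1), against 2.15% of all tested genes that rose, while 45 members had an unadjusted p under 0.05 and the median was the same 0.37. Scaling moved the result too. With quantile normalization 8 members rose, 8.60% against 6.39% of all tested genes, with a median of 0.22 and 0 members called in complexes III and IV. Members were shorter than most genes, and with the trend on gene length removed among protein-coding genes 12 rose, 12.9% against 8.95%. In that fit 2 members fell, against 1142 of the 10113 genes tested, and the median over members was 0.20. With the filter raised to 5 FPKM in 3 libraries, which keeps the more abundant genes, 31 members rose, against 12.7% of all genes tested.

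**Figure D2:**
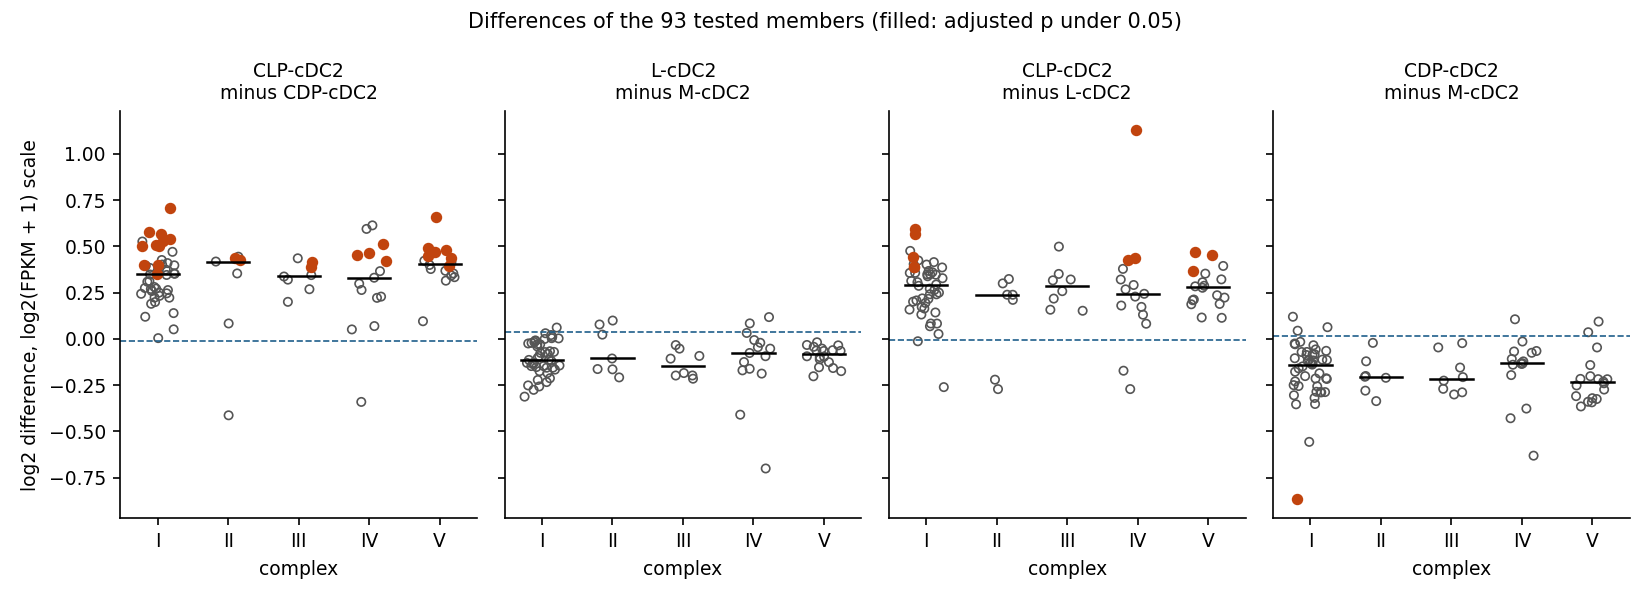
Log2 difference of each of the 93 tested members in the 4 comparisons of groups, by complex. Filled points had an adjusted p under 0.05 in limma, solid bars are the medians of a complex and dashed lines are the medians of all tested genes. In CLP-cDC2 minus CDP-cDC2, 27 points are filled and the median of all members is 0.37, and in L-cDC2 minus M-cDC2 none is filled and the median is -0.10.

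In the main fit complex V had the largest share of members that rose, 8 of 18, counting both Atp5o identifiers. The order depended on scaling. With quantile normalization 1 of 18 rose in complex V, against 6 of 45 in complex I and 1 of 7 in complex II. Atp5c1 (ENSMUSG00000025781, chr2:10060827-10085321 as deposited, build not given) encodes the gamma shaft that turns inside the F1 head. It had 340, 306 and 321 FPKM in CLP-cDC2, against 230, 223 and 236 FPKM in CDP-cDC2. The groups did not overlap, and the spread within each was small. The difference was 0.49 ± 0.10 (SE) on the log2(FPKM + 1) scale, with a limma adjusted p of 0.00624. Leaving out any 1 of the 12 libraries kept its adjusted p between 0.00599 and 0.0284. Atp5g3 encodes the c subunit of the membrane ring and lies at chr2:73738791-73741670. It had 216, 220 and 217 FPKM in CLP-cDC2, against 169, 152 and 102 FPKM in CDP-cDC2, with no overlap and the lowest value in CDP-cDC2 replicate 3. Its difference was 0.66 ± 0.15 (limma adjusted p = 0.0146). Without CLP-cDC2 replicate 2 its adjusted p was 0.0505.

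The other c subunit genes, Atp5g1 and Atp5g2, encode the same mature protein as Atp5g3 and differed by 0.33 and 0.42, with limma adjusted p of 0.0955 and 0.0723. The catalytic F1 subunit Atp5b had 466, 511 and 428 FPKM in CLP-cDC2, against 386, 348 and 300 FPKM in CDP-cDC2. Its libraries did not overlap, and it rose by 0.45 ± 0.11 (limma adjusted p = 0.0192). Atp5a1, the other large F1 subunit, rose by 0.39 ± 0.11 (limma adjusted p = 0.0357). The stalk and membrane subunits Atp5h and Atp5j and both Atp5o identifiers also rose, by 0.44 to 0.48. The second Atp5o identifier, ENSMUSG00000116933, shares exons with Atp5o and Donson, so its reads cannot be assigned to 1 gene with certainty. Atp5j overlaps Gabpa on the opposite strand. The smallest difference of complex V was 0.09 ± 0.13, for Atp5l (limma adjusted p = 0.672), which has pseudogene copies in the table. Atp5b lost its call when CLP-cDC2 replicate 1, CLP-cDC2 replicate 2 or CDP-cDC2 replicate 3 was left out, with adjusted p up to 0.0886. Atp5h lost it without any 1 CLP-cDC2 library or CDP-cDC2 replicate 3. Atp5a1 and Atp5j lost it without 6 and 10 of the 12 libraries.

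Complex II holds the succinate dehydrogenase subunits, of which Sdha and Sdhb form the catalytic head and Sdhc and Sdhd the membrane anchor. Sdhd (ENSMUSG00000000171, chr9:50507657-50515112) had 194, 216 and 205 FPKM in CLP-cDC2, against 158, 164 and 135 FPKM in CDP-cDC2. All CLP-cDC2 libraries were higher, and the difference was 0.43 ± 0.12 (limma adjusted p = 0.0354). Sdhaf4, a chaperone that assists assembly of Sdha, had 39.7, 39.0 and 39.0 FPKM in CLP-cDC2, against 28.0, 30.9 and 27.3 FPKM in CDP-cDC2. Its difference was 0.44 ± 0.10 (limma adjusted p = 0.0154), and its adjusted p stayed at or below 0.0488 without any 1 library. Sdhd lost its call without 7 of the 12 libraries, where its adjusted p reached 0.125. The catalytic subunit Sdha had 66.9, 82.9 and 74.7 FPKM in CLP-cDC2, against 57.1, 75.4 and 80.7 FPKM in CDP-cDC2. These groups overlapped and the difference was 0.08 ± 0.14 (limma adjusted p = 0.73). Sdhb and Sdhc differed by 0.35 and 0.42, with limma adjusted p of 0.116 and 0.13. The assembly factor Sdhaf1, named after its values were seen, had the lowest difference of all members. It had 9.84, 8.56 and 11.6 FPKM in CLP-cDC2, against 13.3, 17.1 and 10.9 FPKM in CDP-cDC2, a difference of -0.41 ± 0.16 that did not pass (limma adjusted p = 0.101).

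In complex III, 2 of 8 members rose, both of them core subunits. Uqcrfs1, the Rieske iron-sulfur protein that carries electrons towards cytochrome c, had 136, 135 and 150 FPKM in CLP-cDC2, against 111, 102 and 107 FPKM in CDP-cDC2. The libraries did not overlap, and the difference was 0.39 ± 0.10 (limma adjusted p = 0.0278). Uqcrc2, a core protein without a redox centre, rose by 0.41 ± 0.10 (limma adjusted p = 0.0196). The partner core protein Uqcrc1 differed by 0.32 ± 0.10 and did not pass (limma adjusted p = 0.0566), although its libraries did not overlap. The 5 accessory subunits differed by 0.20 to 0.44, and 0 of them passed while 2 had an unadjusted p under 0.05. Leaving out any 1 CLP-cDC2 library ended the call of Uqcrfs1, as did leaving out CDP-cDC2 replicate 2 or 3. Uqcrc2 lost it with CLP-cDC2 replicate 1, CLP-cDC2 replicate 2 or CDP-cDC2 replicate 3 left out, with adjusted p up to 0.0773.

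In complex I, 11 of 45 tested members rose, and they were 9 of 30 accessory subunits, 2 of 8 assembly factors and 0 of 7 core subunits. The core subunits, which include the carriers of the flavin and the iron-sulfur centres, differed in the same direction, and 4 of them had an unadjusted p under 0.05. Ndufv2 came closest, with 98.8, 113 and 125 FPKM in CLP-cDC2 and 84.0, 90.9 and 77.4 FPKM in CDP-cDC2 (limma adjusted p = 0.0572). Ndufs1 and Ndufv1, which carry iron-sulfur centres and the flavin, both differed by 0.35, with limma adjusted p of 0.143 and 0.157. Among accessory subunits, Ndufa9 (ENSMUSG00000000399, chr6:126798684-126826099) had 97.5, 99.8 and 104 FPKM in CLP-cDC2, against 79.2, 76.6 and 71.8 FPKM in CDP-cDC2. The groups did not overlap, and the difference was 0.40 ± 0.10 (limma adjusted p = 0.0189). Leaving out CLP-cDC2 replicate 2 or 3 ended the call, with adjusted p up to 0.0586.

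The other accessory subunits that rose were Ndufa11, Ndufb2 and Ndufb6 and, named after their values were seen, Ndufa7, Ndufab1, Ndufb9, Ndufb11 and Ndufc1, with differences of 0.35 to 0.56. Ndufab1 is also the mitochondrial acyl carrier protein. Of the assembly factors, Ndufaf6 had the largest difference of all members. It had 17.1, 15.1 and 21.2 FPKM in CLP-cDC2, against 8.97, 13.4 and 9.41 FPKM in CDP-cDC2, with no overlap. The difference was 0.71 ± 0.17 (limma adjusted p = 0.0185), and the call was lost when CLP-cDC2 replicate 3, CDP-cDC2 replicate 1 or CDP-cDC2 replicate 3 was left out. Ndufaf5, which modifies an arginine of Ndufs7, rose by 0.58 ± 0.18 (limma adjusted p = 0.0484) and lost its call without 9 of the 12 libraries.

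In complex IV, 4 of 15 tested members rose, Cox5a, Cox7a2, Cox7b and Ndufa4. Cox7a2, the ubiquitous form of subunit 7a, had 204, 228 and 229 FPKM in CLP-cDC2, against 183, 160 and 137 FPKM in CDP-cDC2. The difference was 0.47 ± 0.11 (limma adjusted p = 0.0182), and the call was lost without CLP-cDC2 replicate 2 or 3. Cox7b rose by 0.45 ± 0.12 and Ndufa4 by 0.51 ± 0.15, with limma adjusted p of 0.0293 and 0.041, and Cox5a by 0.42 ± 0.12 (limma adjusted p = 0.0411). These 3 lost their calls without 4, 8 and 9 of the 12 libraries. Abundant members of the complex did not pass. Cox8a, Cox6b1 and Cox4i1, with mean levels of 808.2, 671.3 and 439.1 FPKM, differed by 0.30, 0.23 and 0.22, with limma adjusted p of 0.214, 0.198 and 0.218. Cox7a2l, which helps join complexes III and IV into supercomplexes, had 134, 134 and 121 FPKM in CLP-cDC2, against 120, 127 and 128 FPKM in CDP-cDC2. Its difference was 0.05 ± 0.11 (limma adjusted p = 0.789), and the copy Cox5b-ps differed by 0.07 ± 0.24. Cox6b2, the isoform best known from testis, was 6.22, 6.63 and 5.68 FPKM in CLP-cDC2, against 7.68, 11.6 and 5.84 FPKM in CDP-cDC2, and did not pass (limma adjusted p = 0.323).

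**Figure D3:**
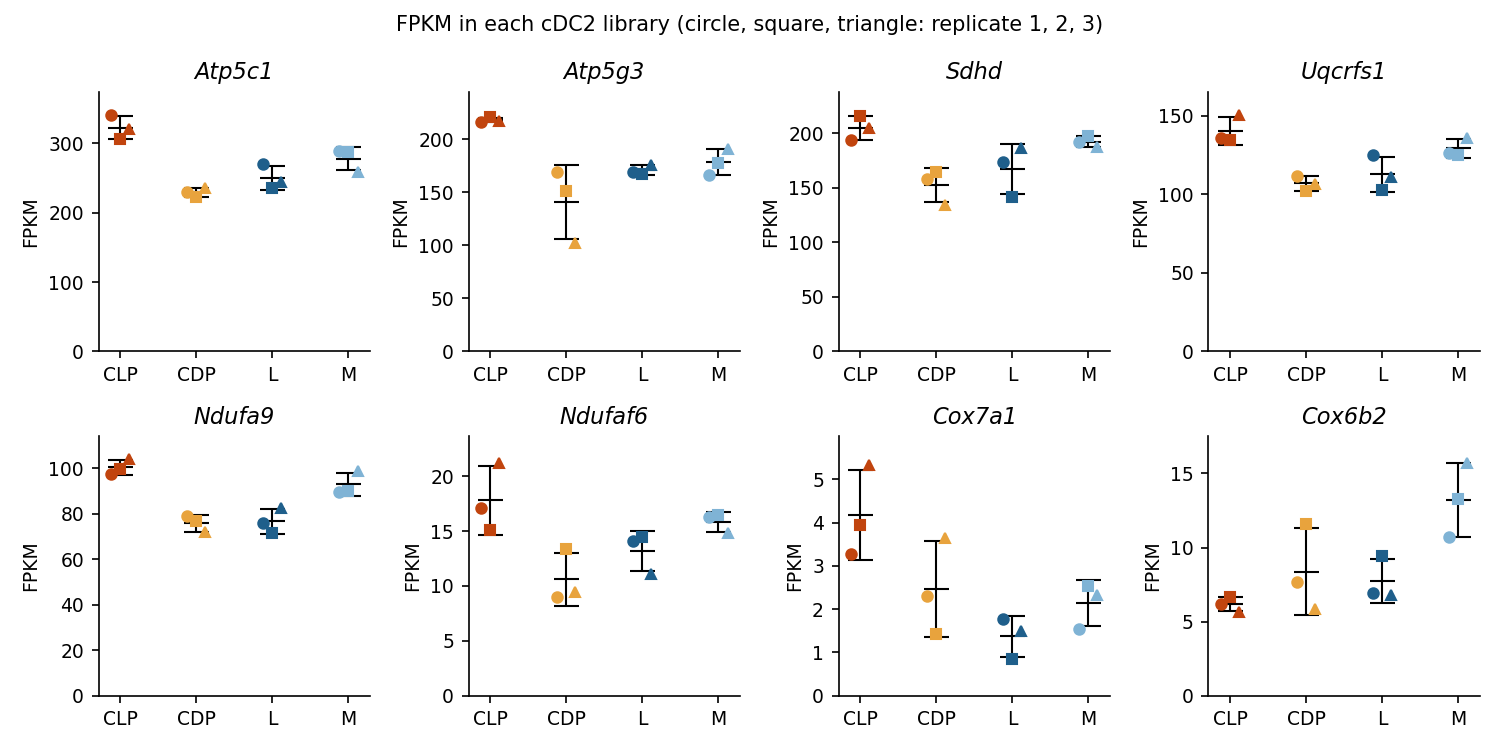
FPKM of 8 members in each library, with the group mean and SD (n = 3 libraries a group). CLP, CDP, L and M stand for CLP-cDC2, CDP-cDC2, L-cDC2 and M-cDC2, and the vertical axes start at 0. The CLP-cDC2 libraries of Atp5c1 lie at 306 to 340 FPKM and its CDP-cDC2 libraries at 223 to 236 FPKM.

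The count of members that rose depended on single libraries. It was 8, 4 and 13 without CLP-cDC2 replicate 1, 2 or 3, and 36, 14 and 6 without CDP-cDC2 replicate 1, 2 or 3. Over all tested genes 4.34%, 3.30% and 5.42% rose without CLP-cDC2 replicate 1, 2 or 3. Without CDP-cDC2 replicate 1 or 2, 7.39% and 5.35% rose. The 4 of 93 members without CLP-cDC2 replicate 2 lie near the share of all genes. The count was 17 without L-cDC2 replicate 1 and 16 without M-cDC2 replicate 2, against 5.87% and 5.49% of all tested genes. It was between 19 and 28 without any other single library, against 5.74 to 7.43%. The median difference over members stayed between 0.24 and 0.44 in all of these fits, lowest without CDP-cDC2 replicate 3. No member that rose changed sign in any of them. Of the 27 members, Atp5c1 and Sdhaf4 passed without each of the 12 libraries in turn, and no member passed in every one of the other alternatives as well. Without CDP-cDC2 replicate 3, 6 members rose and 1 fell, while 4.14% of all tested genes rose and 639 of 14398 fell.

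**Figure D4:**
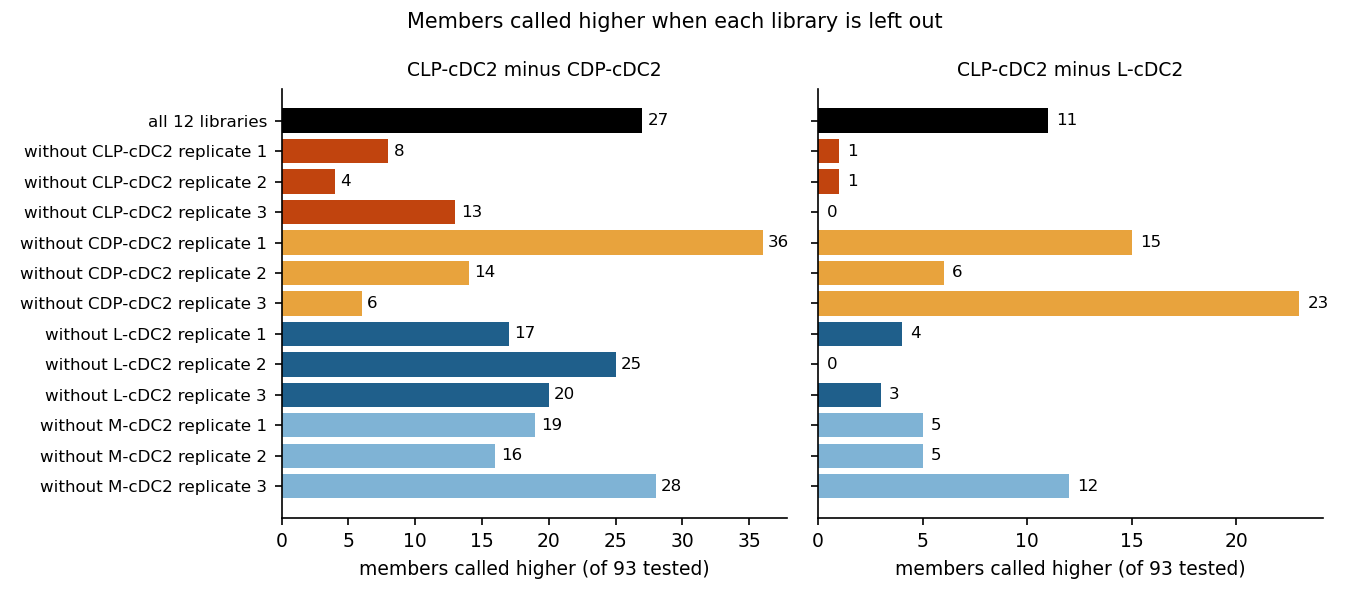
Number of the 93 tested members called higher when each library is left out in turn, for CLP-cDC2 minus CDP-cDC2 and CLP-cDC2 minus L-cDC2. Bars start at 0 and are coloured by the group of the library left out. All 12 libraries give 27 and 11 members.

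Markers of other cell types and gene lists that moved with this comparison are given here, and their part in it was not tested. All 5 tested cDC1 markers were higher in CLP-cDC2, 3 of them past the threshold, with sums of 101.7 to 143.1 FPKM in CLP-cDC2 and 50.04 to 80.98 FPKM in CDP-cDC2. The sum of 5 plasmacytoid dendritic cell markers, a list that contains Cox6a2, was 103.2 to 206.1 FPKM in CLP-cDC2 and 53.5 to 113.3 FPKM in CDP-cDC2. All 4 tested genes of this list were higher, and 1 passed the threshold, Cox6a2 itself. Most of the sum was Bst2, which averaged 108.4 FPKM in CLP-cDC2 and 83.7 FPKM in CDP-cDC2. Of 6 cDC2 markers 5 were lower in CLP-cDC2 past the threshold, and of 5 cDC markers 4. B cell markers summed to 60.02 to 67.07 FPKM in CLP-cDC2 and 30.9 to 49.7 FPKM in CDP-cDC2. The plasma cell list was 22.5, 442.0 and 33.1 FPKM in CLP-cDC2 and 24.5 to 50.7 FPKM in CDP-cDC2. Igkc made up most of that sum, at 20.1 to 429.2 FPKM in CLP-cDC2 and 21.7 to 45.7 FPKM in CDP-cDC2. Macrophage markers summed to 378.4 to 463.6 FPKM in CLP-cDC2 and 576.2 to 667.2 FPKM in CDP-cDC2, with 3 of 5 lower past the threshold. Erythroid markers ran from 14.8 to 298.7 FPKM in CLP-cDC2 and from 0.570 to 76.3 FPKM in CDP-cDC2. Sums for T cell, NK cell and neutrophil markers were at most 12.4 FPKM in these 6 libraries, and 17 of 25 cell cycle genes rose. The mitotic kinase Cdk1, for example, averaged 34.7 ± 3.68 FPKM in CLP-cDC2 and 16.6 ± 2.31 FPKM in CDP-cDC2 (SD, n = 3 libraries each).

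The second comparison set labelled against unlabelled cells of the reporter line. Here 0 of 93 members passed in either direction in limma, against 1.73% of all tested genes in either direction, 1.29% higher and 0.44% lower. Differences lay below 0 for 81 members, with a median of -0.10, against 0.04 over all tested genes. All 18 tested members of complex V and all 8 of complex III had a difference below 0, but 3 and 1 of them lay above 0 after rescaling to TPM or with the length trend removed, and 4 of complex V with quantile normalization. In 13 members the L-cDC2 libraries lay wholly below the M-cDC2 libraries and in 0 wholly above, against 6.67% and 12.7% of all tested genes. Of the members, Cox6b2, Ndufa9 and, named after its values were seen, Ndufb8 had an unadjusted p under 0.05. So did 1201 of all 14538 tested genes. A fit with library weights called 1 member lower, against 300 of all 14538 tested genes. Cox6b2 had the largest difference, with 6.94, 9.42 and 6.82 FPKM in L-cDC2 and 10.7, 13.3 and 15.7 FPKM in M-cDC2. These values did not overlap, and the difference was -0.70 ± 0.21 (limma adjusted p = 0.215). Ndufa9 had 76.0, 71.4 and 82.3 FPKM in L-cDC2 and 89.7, 90.1 and 98.8 FPKM in M-cDC2, without overlap, a difference of -0.28 ± 0.10 (limma adjusted p = 0.36).

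The markers of lymphocytes moved strongly in the same comparison. NK cell markers summed to 179.6 to 264.1 FPKM in L-cDC2 and 0.715 to 1.62 FPKM in M-cDC2, and plasma cell markers to 822.9 to 1401 FPKM in L-cDC2 and 8.89 to 29.3 FPKM in M-cDC2. Nearly all of the plasma cell sum was Igkc, which averaged 1022.9 FPKM in L-cDC2 and 14.9 FPKM in M-cDC2. Jchain, Mzb1, Derl3 and Sdc1 averaged 9.93, 11.4, 2.38 and 0.156 FPKM in L-cDC2. In M-cDC2 they averaged 0.483, 0.207, 0.275 and 0.0249 FPKM. The B cell list summed to 128.9 to 136.2 FPKM in L-cDC2 and 36.7 to 48.6 FPKM in M-cDC2. The B cell receptor gene Cd79a was 50.9 to 57.8 FPKM in L-cDC2 and at most 0.594 FPKM in M-cDC2. Markers of cDC1 went the other way, with sums of 58.3 to 69.6 FPKM in L-cDC2 and 141.3 to 143.7 FPKM in M-cDC2, and 4 of 5 fell. The part of these transcripts in the values of the members was not tested.

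The 2 lineage differences were then compared with each other, by subtracting L-cDC2 minus M-cDC2 from CLP-cDC2 minus CDP-cDC2. For 6 members the lineage difference was higher in the transfer system, and for 0 lower, against 2.38% and 3.61% of all tested genes, and 5.99% in either direction. They were Ndufa9 and Ndufaf6 of complex I, Sdhd of complex II, Uqcrfs1 of complex III, and Atp5c1 and Atp5h of complex V. The median over members was 0.47, against -0.05 over all tested genes, and 90 of 93 values were above 0. For Ndufa9 the lineage difference was 0.40 in the transfer system and -0.28 in the reporter line, a difference of 0.68 ± 0.14 (limma adjusted p = 0.017). For Atp5c1 these were 0.49 and -0.15, a difference of 0.64 ± 0.14 (limma adjusted p = 0.0191). Uqcrfs1, with 0.39 and -0.20, differed by 0.59 ± 0.15 (limma adjusted p = 0.0361), and Ndufaf6, with 0.71 and -0.25, by 0.96 ± 0.24 (limma adjusted p = 0.0379). Sdhd and Atp5h differed by 0.64 ± 0.17 and 0.65 ± 0.18, with limma adjusted p of 0.0465 and 0.0491. Transfer or reporter, host and progenitor source differ together between the systems, and their contributions cannot be told apart. The calls were narrow. Ndufa9 lost its call without L-cDC2 replicate 2 (adjusted p = 0.0641) and Atp5c1 with L-cDC2 replicate 2, L-cDC2 replicate 3 or M-cDC2 replicate 2 left out (up to 0.0689), and the other 4 lost it without 10 or 11 of the 12 libraries. The count of 6 was 3, 0 and 1 without L-cDC2 replicate 1, 2 or 3, and 2, 1 and 2 without M-cDC2 replicate 1, 2 or 3. It was 2, 3 and 2 without CLP-cDC2 replicate 1, 2 or 3, and 22, 4 and 2 without CDP-cDC2 replicate 1, 2 or 3. Over all tested genes the shares, in the same order of replicates, were 1.09%, 0.413% and 0.904% for L-cDC2 and 1.32%, 0.739% and 1.47% for M-cDC2. They were 1.22%, 0.845% and 1.79% for CLP-cDC2 and 3.79%, 1.64% and 1.39% for CDP-cDC2. Counts of 1 or 2 of 93 members lie near these shares. The median stayed between 0.34 and 0.57. Before adjustment 54 of 93 members had a p under 0.05, and so did 3628 of all 14538 tested genes.

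The progeny of injected CLPs were also set against the labelled cells of the reporter line, both of lymphoid origin by design, which is the similarity the study asked about. In CLP-cDC2, 11 of 93 members rose and 0 fell relative to L-cDC2, against 4.29% and 6.32% of all tested genes, and 10.6% in either direction. Differences were above 0 for 87 members, with a median of 0.27, against a median of -0.00 over all tested genes. In 60 members all CLP-cDC2 libraries lay above all L-cDC2 libraries, against 17.8% of all tested genes. In 3 members, Sdha, Sdhaf1 and Cox6b2, all lay below, against 17.9%. All 8 members of complex III were among the 60. The comparison shares its CLP-cDC2 libraries with CLP-cDC2 minus CDP-cDC2, so the differences of a gene in both are not independent.

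The largest difference was that of Cox7a1, a form of subunit 7a known from heart and skeletal muscle. It was low, at 3.27, 3.93 and 5.33 FPKM in CLP-cDC2, against 1.77, 0.845 and 1.5 FPKM in L-cDC2. The values did not overlap, and the difference was 1.13 ± 0.25 (limma adjusted p = 0.0141). The gene had a mean of 59.7 assigned reads per library, and the call was lost without L-cDC2 replicate 2 or CLP-cDC2 replicate 3. Its values in CDP-cDC2 were 2.3, 1.43 and 3.64 FPKM and in M-cDC2 1.53, 2.54 and 2.34 FPKM. Atp5c1, at 269, 236 and 244 FPKM in L-cDC2, rose by 0.37 ± 0.10 (limma adjusted p = 0.0286). Ndufa9, at 76.0, 71.4 and 82.3 FPKM in L-cDC2, rose by 0.39 ± 0.10 (limma adjusted p = 0.0253). Ndufb6, with 149, 151 and 155 FPKM in CLP-cDC2 and 104, 82.3 and 118 FPKM in L-cDC2, rose by 0.59 ± 0.15 (limma adjusted p = 0.0282). These 3 calls were each lost without 5 of the 12 libraries, the CLP-cDC2 libraries among them, with adjusted p up to 0.136. Ndufa5 rose by 0.57 ± 0.15, and Ndufa7, Ndufv2, Cox5b, Cox7b, Atp5j and Atp5pb by 0.39 to 0.47.

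Sdha went the other way, with 66.9, 82.9 and 74.7 FPKM in CLP-cDC2 and 88.7, 85.2 and 87.3 FPKM in L-cDC2, a difference of -0.22 ± 0.14 that did not pass (limma adjusted p = 0.335). The count of 11 rested on single libraries. It was 1, 1 and 0 without CLP-cDC2 replicate 1, 2 or 3, and 4, 0 and 3 without L-cDC2 replicate 1, 2 or 3. Over all tested genes 1.86%, 2.49% and 2.55% rose without CLP-cDC2 replicate 1, 2 or 3, and 2.43%, 0.930% and 1.97% without L-cDC2 replicate 1, 2 or 3. The share of members was below these in 4 of the 6 fits, and was 4.30% and 3.23% without L-cDC2 replicate 1 or 3. The count was 5 without M-cDC2 replicate 1 and 5 without replicate 2, 6 without CDP-cDC2 replicate 2 and 23 without CDP-cDC2 replicate 3. Over all tested genes 3.35%, 3.16%, 3.85% and 6.98% rose in these fits. The median difference stayed between 0.22 and 0.31. Before adjustment 37 of 93 members had a p under 0.05, and so did 3922 of all 14538 tested genes. In the same comparison 9 of 25 cell cycle genes and 4 of 5 cDC1 markers rose, and 4 of 6 cDC2 markers and 5 of 5 NK cell markers fell. Of the tested markers, 2 of 4 for plasmacytoid dendritic cells also rose, and 2 of 5 for cDC, 2 of 4 for B cells, 2 of 4 for plasma cells, 2 of 2 for T cells and 1 of 5 for macrophages fell. Their part in the values of the members was not tested.

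The progeny of injected CDPs and the unlabelled cells of the reporter line gave 1 call. Ndufaf5 had 5.61, 6.49 and 4.52 FPKM in CDP-cDC2, against 9.72, 10.8 and 12.1 FPKM in M-cDC2, and these did not overlap. It fell by 0.87 on the log2(FPKM + 1) scale, with an SE of 0.18 (limma adjusted p = 0.0265), against 0.956% of all tested genes that fell, and 0 members rose, against 1.62%. In either direction 2.58% of all tested genes passed. Its call was lost without any 1 M-cDC2 library or CDP-cDC2 replicate 1 or 3, with adjusted p up to 0.103. Differences were below 0 for 87 members, with a median of -0.19, against 0.02 over all tested genes. In 14 members the CDP-cDC2 libraries lay wholly below those of M-cDC2, against 9.94% of all tested genes, and these included all 3 core subunits of complex III. Before adjustment 18 of 93 members had a p under 0.05, and so did 2929 of all 14538 tested genes, a similar share. Markers of cDC1 summed to 50.04 to 80.98 FPKM in CDP-cDC2 and 141.3 to 143.7 FPKM in M-cDC2, and their part was not tested. With replicate 3 of both groups left out the median was 0.00 and 0 members passed in limma, with 7 at an unadjusted p under 0.05. Without CDP-cDC2 replicate 2 alone 3 members fell, against 171 of the 14400 genes tested in that fit.

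Lists of related genes were read in the same fit. In CLP-cDC2 minus CDP-cDC2, 4 of 36 tested oxidative phosphorylation genes outside the rule rose and 1 fell, with a median of 0.25. Cycs, the cytochrome c that connects complexes III and IV, averaged 109 ± 7.16 FPKM in CLP-cDC2 and 72.3 ± 13.3 FPKM in CDP-cDC2 (SD, n = 3 libraries each). It rose by 0.59 ± 0.15 (limma adjusted p = 0.0227), and Cyc1, the cytochrome c1 of complex III, rose by 0.42 ± 0.12 (limma adjusted p = 0.0433). Coa7 and Tmem70, assembly factors of complexes IV and V, rose by 0.74 and 0.47. Cox11, which inserts copper into complex IV, fell, with 4.53 ± 0.708 FPKM in CLP-cDC2 and 7.61 ± 1.90 FPKM in CDP-cDC2, a difference of -0.62 ± 0.17 (limma adjusted p = 0.0305). Of 14 tricarboxylic acid cycle genes 3 rose, Idh2, Idh3a and Suclg1, and 0 fell, with a median of 0.33. Idh2, the mitochondrial NADP-dependent isocitrate dehydrogenase, had the largest difference of that list, 1.078 ± 0.129 (limma adjusted p = 0.000418), with 162 ± 18 FPKM in CLP-cDC2 and 75.9 ± 7.69 FPKM in CDP-cDC2. Citrate synthase, Cs, differed by 0.04 ± 0.18.

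Ribosomal protein genes moved in the same direction. Of 78 mitochondrial ribosomal protein genes 16 rose and 0 fell, with a median of 0.37. Of 90 tested cytosolic ribosomal protein genes 11 rose and 0 fell, with a median of 0.28. Genes for mitochondrial transcription and replication had 0 of 12 past the threshold in either direction, with a median of 0.17, and 4 of that list had an unadjusted p under 0.05. Tfam, which packages and transcribes mitochondrial DNA, differed by 0.38 ± 0.14 (limma adjusted p = 0.0958). Of 7 tested regulators, 0 passed in either direction, 1 had an unadjusted p under 0.05 and the median was 0.10. Nrf1 and Gabpa differed by 0.21 ± 0.16 and 0.10 ± 0.16, and Esrra by -0.36 ± 0.18. All were read against 7.02% of all tested genes that rose. Mitochondrially encoded genes were not analysed here.

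**Figure D5:**
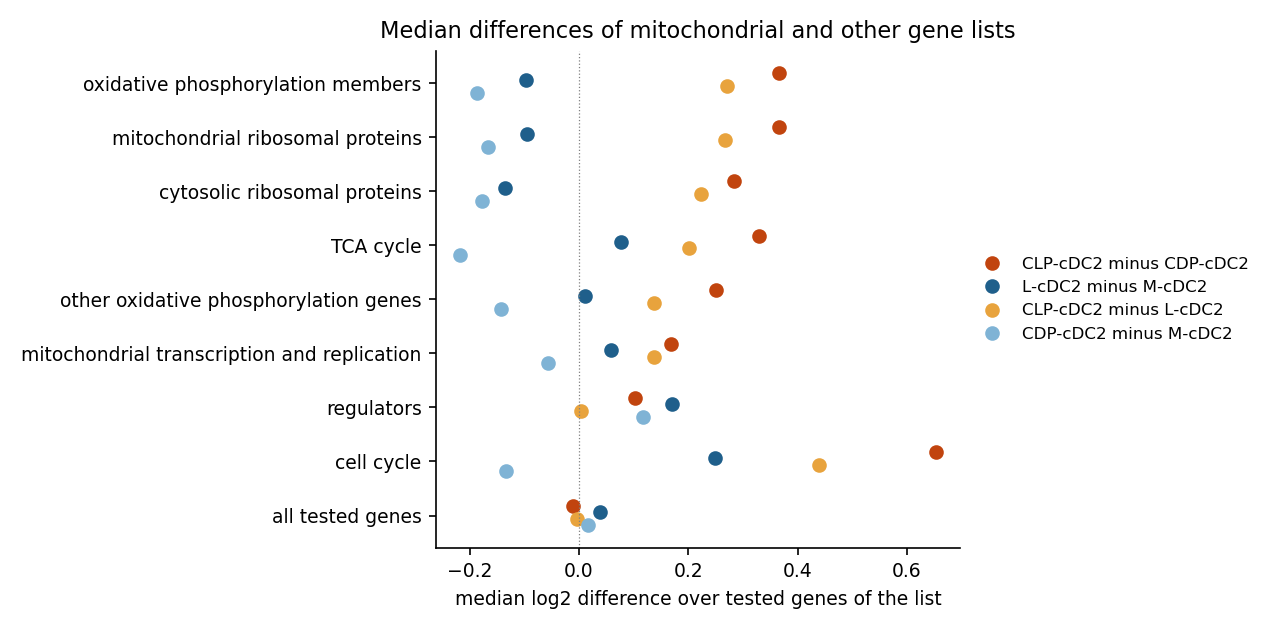
Median log2 difference of the tested genes of each list in the 4 comparisons of groups. Points are medians of log2(FPKM + 1) differences and the last row is all tested genes. In CLP-cDC2 minus CDP-cDC2 the members stand at 0.37, mitochondrial ribosomal proteins at 0.37, cell cycle genes at 0.65 and all tested genes at -0.01.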

How the data were processed

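RNA from sorted spleen cells was amplified with SMART-Seq HT after RNeasy micro extraction, and libraries were made with Nextera XT, per the labels' protocols. The authors deposited FPKM values for the 12 libraries in a single table. Per the submitters' processing notes, reads were handled with STAR 2.7.9a, featureCounts 2.0.1, DESeq2 1.20.0, cutadapt 3.7, Trimmomatic 0.39 and Trim Galore 0.6.7, in no stated order. The notes name GRCh38 and GRCm38 without roles. Coordinates in the table did not match GRCm38, and no source used here gives their build. The table had 0 value columns beyond those of the 12 libraries.

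From these values, log2(FPKM + 1) was fitted with limma 3.58.1 in R 4.3.3 over all 4 groups, with a trend on mean level and no block. Genes at 1 FPKM or more in at least 3 libraries were tested, and Benjamini-Hochberg adjustment ran over all 14538 of them at a threshold of 0.05. Differences on this scale understate the change of low genes. The procedure was tested on simulated data. Assigned reads per library were recovered from the FPKM steps, in steps of 0.01 read with a tolerance of 0.02 step. Since 44.8 to 53.2% of genes had whole reads in a library, no count test was run. Depth ranged from 26543345 to 73732243 reads, and the number of libraries limits the precision.

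Members, gene lists and markers were chosen with earlier results of these data known. The rule for named members took the core subunits and isoform pairs, up to 4 called members per complex and comparison with the largest differences, and the highest and lowest tested member of each complex. Within systems, CLP-cDC2 was compared with CDP-cDC2 and L-cDC2 with M-cDC2, and these differences with each other. Between systems, CLP-cDC2 was compared with L-cDC2, and CDP-cDC2 with M-cDC2. Alternatives covered the pseudocount, the filter, scaling (quantile, TMM, TPM), the groups fitted, library weights, the trend, a replicate block, protein-coding genes, a gene length trend and left-out libraries. A fit that left out replicate 3 of both CDP-cDC2 and M-cDC2 was added because earlier results showed them apart.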

Additional observations from a re-analysis of the deposited data

Results flagged for a closer look

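For 6 members the lineage difference in the transfer system (CLP-cDC2 minus CDP-cDC2) differed from that in the reporter line (L-cDC2 minus M-cDC2) by a test of the difference itself in limma. On the log2(FPKM + 1) scale the difference of differences was 0.96 for the complex I assembly factor Ndufaf6, 0.68 for the complex I subunit Ndufa9, 0.65 for Atp5h and 0.64 for Atp5c1 of complex V, 0.64 for Sdhd of complex II and 0.59 for Uqcrfs1 of complex III. All 6 were positive, and 2.38% of all tested genes passed in that direction.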

How the results depend on the processing

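The median difference over members kept its direction under every setting run for CLP-cDC2 minus CDP-cDC2, L-cDC2 minus M-cDC2, their difference and CLP-cDC2 minus L-cDC2. For CDP-cDC2 minus M-cDC2 it was 0.0040 when replicate 3 of both groups was left out (called both libraries from here on). Counts of calls moved widely.

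For CLP-cDC2 minus CDP-cDC2, 27 members rose. The count was 7 with no filter, 8 with quantile normalization, 13 with TMM factors, 13 with no trend, 12 with the gene length trend removed and 11 without both libraries. With only the groups of the contrast it was 0. Over all tested genes the shares higher in these fits were 1.29%, 6.39%, 5.38%, 5.96%, 8.95%, 5.28% and 2.15%, against 7.07%, 8.60%, 14.0%, 14.0%, 12.9%, 11.8% and 0% of members. Members that fell were 2 with array weights, 2 with the length trend removed and 1 without both libraries. Over all tested genes 1102 of 14538, 1142 of 10113 and 808 of 14289 fell in these fits. The median of 0.37 was 0.22 with quantile normalization, 0.20 with the length trend removed and 0.24 without both libraries. Leaving out single libraries gave 4 to 36 higher, 0 to 1 lower and medians of 0.24 to 0.44. In those fits 3.30 to 7.43% of all tested genes rose, and 501 to 907 genes fell.

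For L-cDC2 minus M-cDC2, array weights called 1 member lower, against 300 of all 14538 tested genes. Medians without single libraries ran from -0.12 to -0.06 with 0 calls. For the difference of the lineage contrasts, 6 became 10 with a filter of 5 FPKM, 11 over protein-coding genes and 26 with array weights. It became 2 with no filter, with quantile normalization, with no trend and without both libraries. Over all tested genes 5.76%, 4.77% and 6.62% rose with the 5 FPKM filter, over protein-coding genes and with array weights. In the fits with 2 members, 0.180%, 2.01%, 1.40% and 1.24% of all tested genes rose. With quantile normalization the members, at 2.15%, were near all genes. The median of 0.47 was 0.30 with quantile normalization, 0.35 with array weights, 0.26 with the length trend removed and 0.30 without both libraries. Without single libraries the count was 0 to 22, against 0.413 to 3.79% of all tested genes, and the median 0.34 to 0.57. The fit with only the groups of the contrast was not run for it, since it uses all 4 groups.

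For CLP-cDC2 minus L-cDC2, 11 became 2 with no filter, 6 with quantile normalization, 7 with TMM factors, 2 with no trend and 6 with the length trend removed. It became 20 with only the groups of the contrast, 22 with array weights and 32 without both libraries. Over all tested genes 0.658%, 5.27%, 3.94%, 3.52% and 7.12% rose in the first 5 of these fits, against 2.02%, 6.45%, 7.53%, 2.15% and 6.45% of members, which is near or below all genes with quantile normalization, no trend and the length trend removed. With only the groups of the contrast, with array weights and without both libraries, 5.45%, 7.75% and 8.41% of all tested genes rose. Without single libraries the count of members was 0 to 23, against 0.930 to 6.98% of all tested genes, with medians of 0.22 to 0.31. For CDP-cDC2 minus M-cDC2, the 1 member that fell became 0 with no filter, with only the groups of the contrast and without both libraries, and 11 with array weights. Over all 14538 tested genes, 139 fell in the main fit and 828 with array weights. In the other 3 fits 63 of 44519, 34 of 14538 and 62 of 14289 genes fell. Without single libraries the count of members was 0 to 3, with medians of -0.25 to -0.07, and 48 to 171 of all tested genes fell. With no filter, many more low genes enter the adjustment. Otherwise the cause was not tested.

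With replicate number as a block, members that rose were 16 for CLP-cDC2 minus CDP-cDC2, 2 for the difference and 4 for CLP-cDC2 minus L-cDC2. Over all tested genes 5.62%, 1.18% and 2.96% rose in these comparisons. For CDP-cDC2 minus M-cDC2, 0 members fell, against 92 of all 14538 tested genes. Correlations of deviations between same-numbered libraries were -0.03, 0.28 and 0.09 for CLP-cDC2 with CDP-cDC2. They were 0.13, -0.22 and -0.08 for L-cDC2 with M-cDC2. Not every library correlated best with its own number. With 3 libraries a group these correlations cannot decide whether the numbers paired the samples, and the labels do not state it.

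Of all 93 members, the CLP-cDC2 minus CDP-cDC2 difference changed sign for 7 with the length trend removed, 6 with quantile normalization, 4 with array weights, 6 without CDP-cDC2 replicate 3 and 6 without both libraries. Among the 57 differences followed singly (of members called, or fixed by name), it reversed for Cox6b1 with the length trend removed (-0.029), for Cox7a2l with quantile normalization (-0.11) and the length trend removed (-0.13), and for Sdha with quantile normalization (-0.048) and without CDP-cDC2 replicate 1 (-0.065, against up to 0.18 with CDP-cDC2 replicate 3 left out). Of the 1474 values of these 57 differences under alternatives, 1059 kept direction and side of the threshold, 390 lost the call, 20 gained one and 5 reversed.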

Other observations

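Cox6a2, the heart and muscle form of complex IV subunit 6a, was left out by the rule, and is in the list of plasmacytoid dendritic cell markers used here. It had 56.1, 13.07 and 13.01 FPKM in CLP-cDC2, 3.66, 2.2 and 0.631 FPKM in CDP-cDC2, 7.07, 3.19 and 2.62 FPKM in L-cDC2 and 0.881, 1.58 and 1.94 FPKM in M-cDC2. All 3 CLP-cDC2 libraries lay above the other 9. The gene rose by 2.95 ± 0.52 in CLP-cDC2 minus CDP-cDC2 (limma adjusted p = 0.00361) and by 2.17 ± 0.52 in CLP-cDC2 minus L-cDC2 (limma adjusted p = 0.0201).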
